A study of Sus scrofa with 4 samples.

Results

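The claudins, classical and related cadherins, occludin and the ZO scaffold proteins are the genes through which epithelial, endothelial and glial cells hold on to each other. They were taken here by name from the feature list of the files: every gene named CLDN or CDH followed by a number, OCLN, and the TJP genes. The rule found 44 of 30282 genes, namely 19 claudins, 22 cadherins, OCLN, TJP1 and TJP3. CLDN7 carries no feature name in the files. It was matched by identifier through a gene name table, and its values are given beside the members. It enters no count of members and no claudin sum or share, only the count of values under alternative settings near the end.

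The study grew porcine pancreatic ductal organoids (PPDO), three-dimensional cultures started from ducts of the pig pancreas, and profiled them by droplet-based single-cell RNA sequencing beside dissociated primary pancreas, with 2 libraries of each. The study describes the organoids as a line of an LPN (late postnatal) and a line of an Ad (adult) pig, sampled at different passage, whereas the sample ages named in its methods both lie in the range it defines as LPN. No label tells which library stands for which line. Both were kept in medium with WNT3a, R-spondin, noggin, EGF, FGF10 and the TGF-beta receptor inhibitor A83-01, which the primary cells never met. The primary cells came from a WT pig and an INS-eGFP pig (German landrace, LPN age), the second with eGFP driven by the insulin promoter. They were processed on different days, the WT one as ducts picked by hand and the other as a pool of DBA-labelled cells, eGFP cells and whole suspension, and live cells were sorted in every case. That replicate 1 is the WT pig is an assumption from the order of the methods: UMIs of the transgene numbered 164 in primary pancreas 1 and 10390 in primary pancreas 2. Group and culture coincide, so cells and medium cannot be told apart as sources of a difference. The libraries of a group thus come from 2 lines or 2 pigs that also differ in age, passage or preparation, and p-values measure only the spread between these libraries. By the stated ages, the PPDO lines came from other pigs than the primary cells.

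Tight junctions seal the space between neighbouring cells near their apical side. Claudins form the strands and decide which ions pass, occludin joins them, and the ZO proteins (TJP genes) tie the strands to actin. Adherens junctions lie below and are built from classical cadherins, which bind the same cadherin on the next cell and hold beta-catenin, p120 and alpha-catenin inside. In the pancreas the duct epithelium is known for secreting bicarbonate-rich fluid across such junctions. The name rule also takes cadherins that are not classical, such as CDH13, which has no cytoplasmic tail, and CDH23, a long cadherin known from the inner ear.

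Each value is a level in CPM, unique molecular identifiers (UMIs, counted molecules) of a gene per 1000000 UMIs of a group of cells. The assay counts 1 tag at the 3' end per molecule, so levels were not divided by transcript length, though they depend on how well a gene's 3' end is annotated. Total depth was 366263520 and 316018482 UMIs for the organoid libraries, PPDO 1 and PPDO 2, and 87043513 and 138928395 UMIs for primary pancreas 1 and primary pancreas 2. Filtering left 8885, 7337, 5671 and 4261 cells. Clusters of primary cells were named from fixed marker lists that held no junction gene. This gave 2155 and 1171 ductal-like cells in primary pancreas 1 and 2, 257 and 56 acinar-like, 101 and 2203 endocrine-like, 1073 and 264 endothelial-like and 709 and 138 immune-like cells. Fibroblast-like (314), mural-like (438) and Schwann-like (341) cells are described from primary pancreas 1, since primary pancreas 2 held 7, 41 and 1 of them. Between 10 and 23 cell barcodes were shared by any pair of libraries. With at most 2 libraries per class, levels across classes are a description without a test, and the classes come from different preparations of the organ.

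Of the 44 members, 25 reached a mean of 20 CPM in at least 1 primary class. Ductal-like cells had the highest level of 9 of these, endothelial-like and Schwann-like cells of 4 each, mural-like cells of 3, fibroblast-like cells of 2, and acinar-like, endocrine-like and immune-like cells of 1 each. The other 19 stayed below 20 CPM in every class and in PPDO, with a highest mean of 16.5 CPM (CDH10 in Schwann-like cells), and CLDN17 was the lowest. Some members were nearly restricted to a class in these libraries. Set against the highest library of any other named class with at least 50 cells, CLDN19 had 261 CPM in Schwann-like cells against 0.671 CPM, CDH19 1015 against 21.3 CPM and CDH8 127 against 4.14 CPM. CLDN1 had 352 CPM in fibroblast-like cells against 5.33 CPM, CLDN5 547 and 171 CPM in endothelial-like cells against 9.53 CPM, and CLDN8 38.2 and 57.6 CPM in ductal-like cells against 1.59 CPM. For others the first places lay close: TJP1 in endothelial-like cells was 1.02 times that of fibroblast-like cells, CDH24 in mural-like cells 1.16 times that of ductal-like cells, and CDH13 in endothelial-like cells 1.24 times that of mural-like cells. The endothelial-like values of TJP1 lay on either side of the fibroblast-like one. The fibroblast-like and mural-like levels are of 1 library, so their spread is not known.

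**Figure D1:**
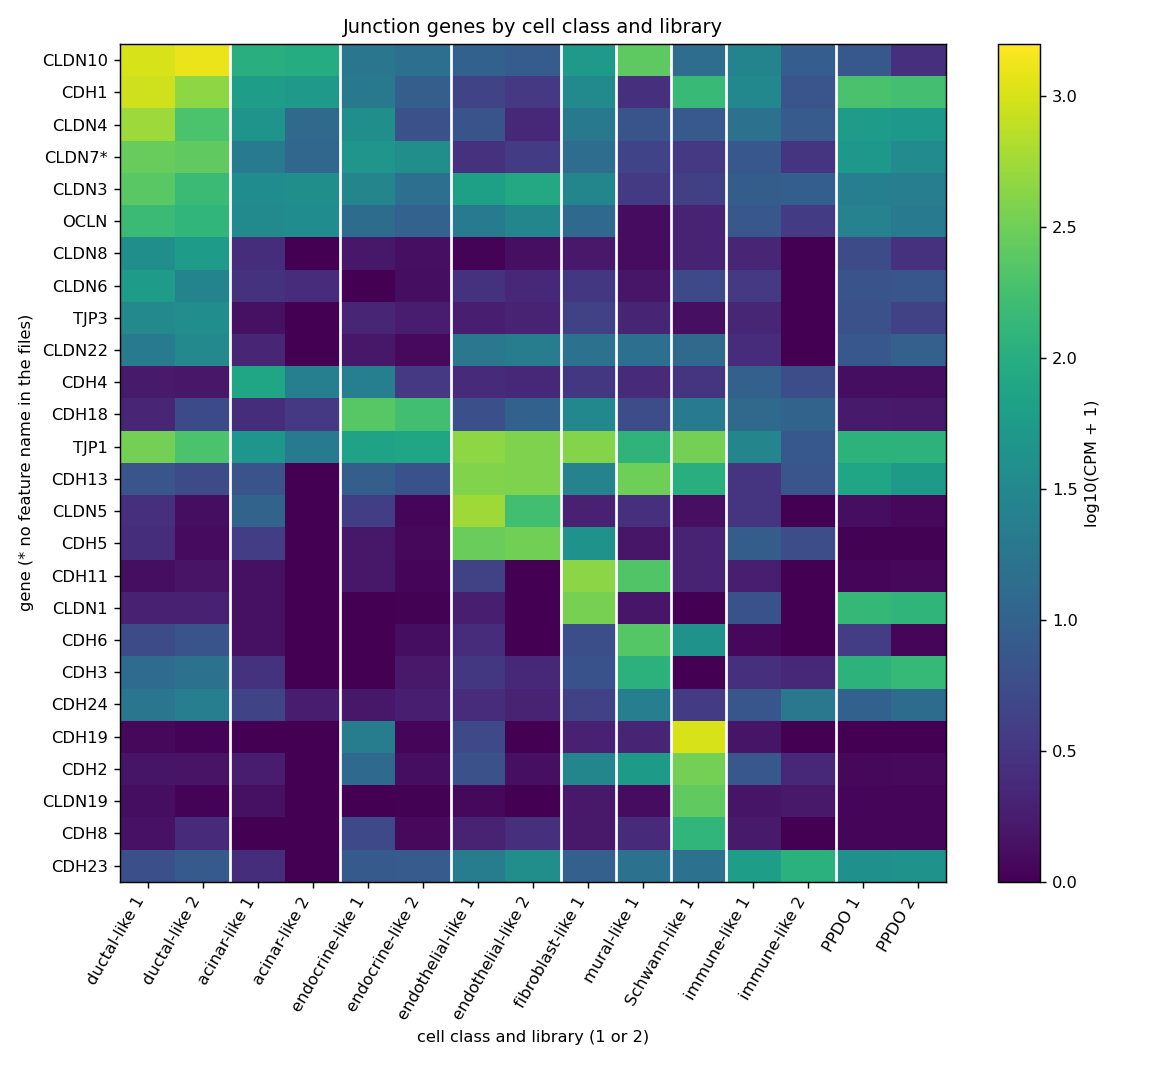
Heat map of the level (colour, log10 of CPM plus 1) of each named junction gene (rows) in each primary cell class and library and in the PPDO libraries (columns). The number of genes highest in a class runs from 9 members in ductal-like cells to 1 each in acinar-like, endocrine-like and immune-like cells. CLDN10 stands at 1004 and 1271 CPM in ductal-like cells, CLDN5 at 547 and 171 CPM in endothelial-like cells and CDH19 at 1015 CPM in Schwann-like cells, while CLDN1 is high in fibroblast-like cells and PPDO.

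Among the named classes, the summed claudin level was highest in ductal-like cells, at 1910 and 1750 CPM in primary pancreas 1 and 2. All claudin sums and shares leave out CLDN7, which had 289 and 260 CPM in ductal-like cells. In primary pancreas 2 that was above CLDN4, at 196 CPM. CLDN10 alone gave 52.5 and 72.6% of the claudin UMIs summed in ductal-like cells, and CLDN4 gave 27.9 and 11.2%. A different claudin led elsewhere: CLDN5 gave 83.7 and 58.7% of 653 and 291 CPM in endothelial-like cells, CLDN19 84.3% of 309 CPM in Schwann-like cells, and CLDN1 73.8% of 477 CPM in fibroblast-like cells. In mural-like cells CLDN10 gave 90.4% of 281.5 CPM. The summed cadherin level was instead highest in Schwann-like cells, at 1859 CPM, and stood at 966 CPM in mural-like cells, 736 and 769.8 CPM in endothelial-like cells and 978 and 514 CPM in ductal-like cells. CDH1 made up 94.0 and 87.1% of the ductal-like sum. The organoids summed to 248 and 222 CPM of claudins and 438 and 425 CPM of cadherins, and led with CLDN1 and CDH1.

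**Figure D2:**
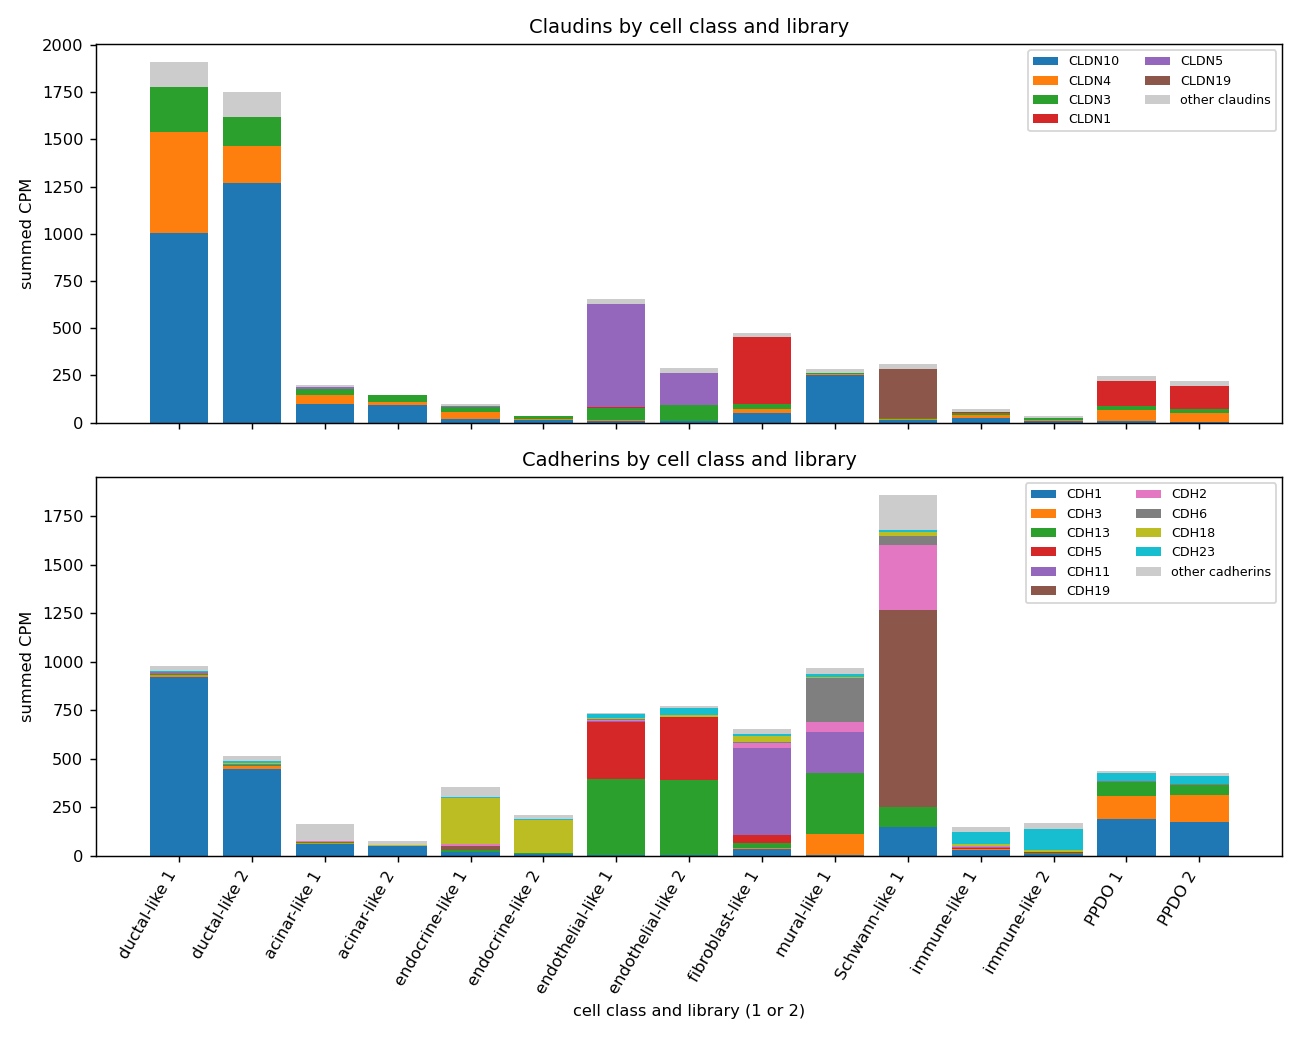
Stacked bars of summed CPM (axis from 0) of claudins (top) and cadherins (bottom) per cell class and library, coloured by the leading genes, with the rest in grey; each bar is 1 library and has no error bar. The claudin bars of ductal-like cells (1910 and 1750 CPM) tower over those of PPDO (248 and 222 CPM), and CLDN1 takes the place of CLDN10 as the main claudin colour in PPDO. CLDN7 is not part of the bars.

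In duct cells, the claudins of at least 20 CPM were CLDN10, CLDN4, CLDN3, CLDN7, CLDN8, CLDN6 and CLDN22. CLDN10 (chromosome 11, 65027706 to 65145002 on Sscrofa11.1), a claudin that forms paracellular ion pores, had 1004 and 1271 CPM in primary pancreas 1 and 2. CLDN4 and CLDN3, barrier-forming claudins that lie 19.6 kb apart on chromosome 3, had 534 and 196 CPM and 238 and 151 CPM. CLDN7 had 289 and 260 CPM, and CLDN8, another barrier-forming claudin, 38.2 and 57.6 CPM. CLDN6, known from embryonic epithelia, had 58.0 and 27.1 CPM, but lies 99 bases from CLDN9 and carries a 3' extension of 10 kb in the annotation, so the counts of that pair are uncertain. CLDN22 had 20.03 and 31.5 CPM, and was little higher here than elsewhere. Its class mean was 25.8 CPM in ductal-like, 19.3 CPM in endothelial-like and 15.2 CPM in fibroblast-like cells. CLDN4 and CLDN6 were thus higher in primary pancreas 1, and CLDN10 and CLDN8 in primary pancreas 2.

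The scaffold and adhesion genes of duct cells were OCLN with 153 and 125 CPM, TJP1 with 343 and 196 CPM and TJP3 with 30.9 and 36.4 CPM. CDH1, the E-cadherin of epithelia (chromosome 6, 18075487 to 18155986), had 919 and 447 CPM. CDH3, the P-cadherin that lies 35.0 kb away on the same chromosome, had 12.2 and 15.2 CPM. The class means of TJP3 and the claudins 4, 6 and 8 were at least 10 times lower in every other named class, whereas OCLN in acinar-like cells stood at 32.6 and 34.8 CPM and CLDN3 in endothelial-like cells at 64.8 and 83.2 CPM.

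CDH1 and CLDN4, which differed between the primary libraries, also differed between clusters of duct cells. Each library had its own ductal-like clusters, named here after genes among their 10 leading ones. In primary pancreas 1, the cluster led by OSGIN1 and EREG (1028 cells) had 1129 CPM of CDH1 and 728 CPM of CLDN4, and the cluster led by CXCL14 and CFTR (687 cells) had 599 and 233 CPM. The main cluster of primary pancreas 2 (1107 cells) had 453 and 200 CPM, close to the CXCL14 and CFTR cluster. CLDN4 is itself a leading gene of the OSGIN1 and EREG cluster. CLDN10 had 971, 1200 and 1299 CPM in these clusters. A further 439 cells of primary pancreas 1, at a median depth of 5007 UMIs, had 383 CPM of CLDN10 together with 20.1 CPM of CDH5, 18.7 CPM of CLDN5 and 32.1 CPM of CDH13. The summed endothelial marker level was 575 CPM there, with none of the 11 markers at 0, against 116 and 68.2 CPM in the other ductal-like clusters of that library; its part in these values was not tested.

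Acinar cells, which make digestive enzymes, had some of the duct members at lower levels plus CDH4. CLDN10 stood at 101 and 95.8 CPM, CDH1 at 61.9 and 51.5 CPM, CLDN3 at 34.9 and 38.0 CPM, CLDN4 at 44.5 and 11.9 CPM and TJP1 at 46.5 and 19 CPM. CLDN6, CLDN8 and TJP3 were at means of 1.78, 0.794 and 0.199 CPM, near the 1.202, 0.601 and 0.601 CPM of immune-like cells. CDH4, the R-cadherin, had 78.2 and 23.0 CPM and at most 23.1 CPM in any other named class.

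Endocrine-like cells were set apart by a single cadherin. CDH18, a type II cadherin known from neurons, had 235 and 168 CPM, and at most 30.01 CPM in the other named classes. INS alone made up 37.8 and 52.8% of the UMIs of these cells, which lowers the CPM of all other genes. With INS left out of the total, a choice made with the values already in view, CDH18 had 378 and 355 CPM, TJP1 had 111 and 162 CPM in place of 69.2 and 76.6 CPM, and CLDN7 had 73.2 and 78.5 CPM in place of 45.5 and 37.1 CPM. CDH1 was at 18.9 and 8.38 CPM, and CLDN3 at 27.8 and 13.9 CPM. The duct claudin CLDN10 had 17.2 and 13.8 CPM here, and 27.6 and 29.2 CPM with INS left out, beside 26.5 and 8.06 CPM in immune-like cells.

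Endothelial-like cells carried the vascular pair CLDN5 and CDH5 together with CDH13 and TJP1. CDH5, the VE-cadherin of vessel walls, had 295 and 327 CPM, and CDH13 had 388 and 385 CPM. CLDN5 (chromosome 14, 51161490 to 51162382), known as the main claudin of the blood-brain barrier, had 547 and 171 CPM. TJP1 had 455 and 379 CPM, CLDN3 64.8 and 83.2 CPM, OCLN 20.5 and 28.8 CPM and CDH23 21.2 and 37.7 CPM. CLDN5 was higher in primary pancreas 1 and CDH23 in primary pancreas 2, whereas CDH5 and CDH13 lay close in both.

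Within the endothelial-like class, the clusters with the least CLDN5 had the most CLDN3. The cluster led by SEMA3G and GJA5, genes known from arteries (148 cells of primary pancreas 1), had 2420 CPM of CLDN5 and 10.9 CPM of CLDN3, and its 21 cells of primary pancreas 2 had 612 and 12.7 CPM. The cluster led by SELP and IL33 (205 and 47 cells) had 652 and 454 CPM of CLDN5 and 4.96 and 14.2 CPM of CLDN3, with CDH13 at 768 and 576 CPM. The clusters led by DYSF and FLT1 (720 cells of primary pancreas 1) and by BTNL9 and PLVAP (192 cells of primary pancreas 2) had 126 and 46.0 CPM of CLDN5 and 94.2 and 110 CPM of CLDN3. Members were left out of the genes used for clustering, but correlated genes were not, and CLDN5 was a leading gene of the SEMA3G and GJA5 cluster, so these are values of clusters and not a test.

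Schwann-like cells, the glia of peripheral nerves, had the most cadherin RNA of any class and were described from primary pancreas 1 alone. CDH19, known from the Schwann cell lineage, had 1015 CPM, CDH2 (N-cadherin) 338 CPM and CDH8 127 CPM. CLDN19 (chromosome 6, 168695246 to 168699683), a claudin of the tight junctions in peripheral myelin, had 261 CPM. CDH1 had 148 CPM, the second highest class mean of this epithelial cadherin, with TJP1 at 334 CPM.

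These genes were divided between a pair of Schwann-like clusters. The cluster led by PMP22 and NCMAP, genes of myelin (153 cells), had 598 CPM of CLDN19, 597 CPM of TJP1, 205 CPM of CDH1 and 87.8 CPM of CDH6, and only 11.5 CPM of CDH2 and 7.39 CPM of CDH8. The cluster led by SCN7A and APOE (188 cells) had 1486 CPM of CDH19, 574 CPM of CDH2 and 214 CPM of CDH8, with 17.7 CPM of CLDN19 and 106 CPM of CDH1. CDH19 itself was present in both, at 360 CPM in the myelin-gene cluster. CDH19 and CLDN19 were among the leading genes of their own clusters, so their contrast is a description of how the cells were grouped.

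Fibroblast-like cells had CDH11, the cadherin of mesenchyme, at 446 CPM, and a further pair of genes at levels near it: TJP1 at 408 CPM and CLDN1 at 352 CPM. With finer clusters, a choice made with the values already in view, CLDN1 and TJP1 belonged mainly to a cluster of 130 cells led by FCN2, APOD and THBS4. It had 809.5 CPM of CLDN1, 797 CPM of TJP1, 572 CPM of CDH11, 103 CPM of CDH5 and 67.4 CPM of CDH18. The other cluster, led by CCDC80, COL14A1 and DPT (173 cells), had 34.5 CPM of CLDN1, 117 CPM of TJP1, 373 CPM of CDH11 and 0.628 CPM of CDH5. The summed endothelial marker level was 162 CPM in the FCN2, APOD and THBS4 cluster and 293 CPM in the CCDC80, COL14A1 and DPT cluster, and the summed fibroblast marker level 23307 and 26390 CPM in the same order. CLDN1 was itself among the leading genes of the FCN2, APOD and THBS4 cluster.

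Mural-like cells, the smooth muscle cells and pericytes around vessels, were the only named class outside the epithelium in which CLDN10 passed 100 CPM. CLDN10 had 254 CPM, CDH13 312 CPM, CDH6 225 CPM, CDH11 211 CPM, CDH3 112 CPM and CDH2 53.7 CPM in primary pancreas 1. The 41 mural-like cells of primary pancreas 2 gave 192, 424, 235, 285, 134 and 84.9 CPM in the same order. With finer clusters, the contractile cells led by MYH11 and CNN1 (253 cells) had more CLDN10, CDH13 and CDH3 (346, 406 and 145 CPM) than the cells led by CCL19 and RGS5 (187 cells, with 61.1, 115 and 44.9 CPM). CDH2 went the other way, with 14.5 and 133 CPM. The summed mural marker level was 25399 and 7657 CPM in these clusters, and the summed fibroblast marker level 908.5 and 2163 CPM, with 1 and 0 of 8 fibroblast markers at 0; their part in the values was not tested.

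**Figure D3:**
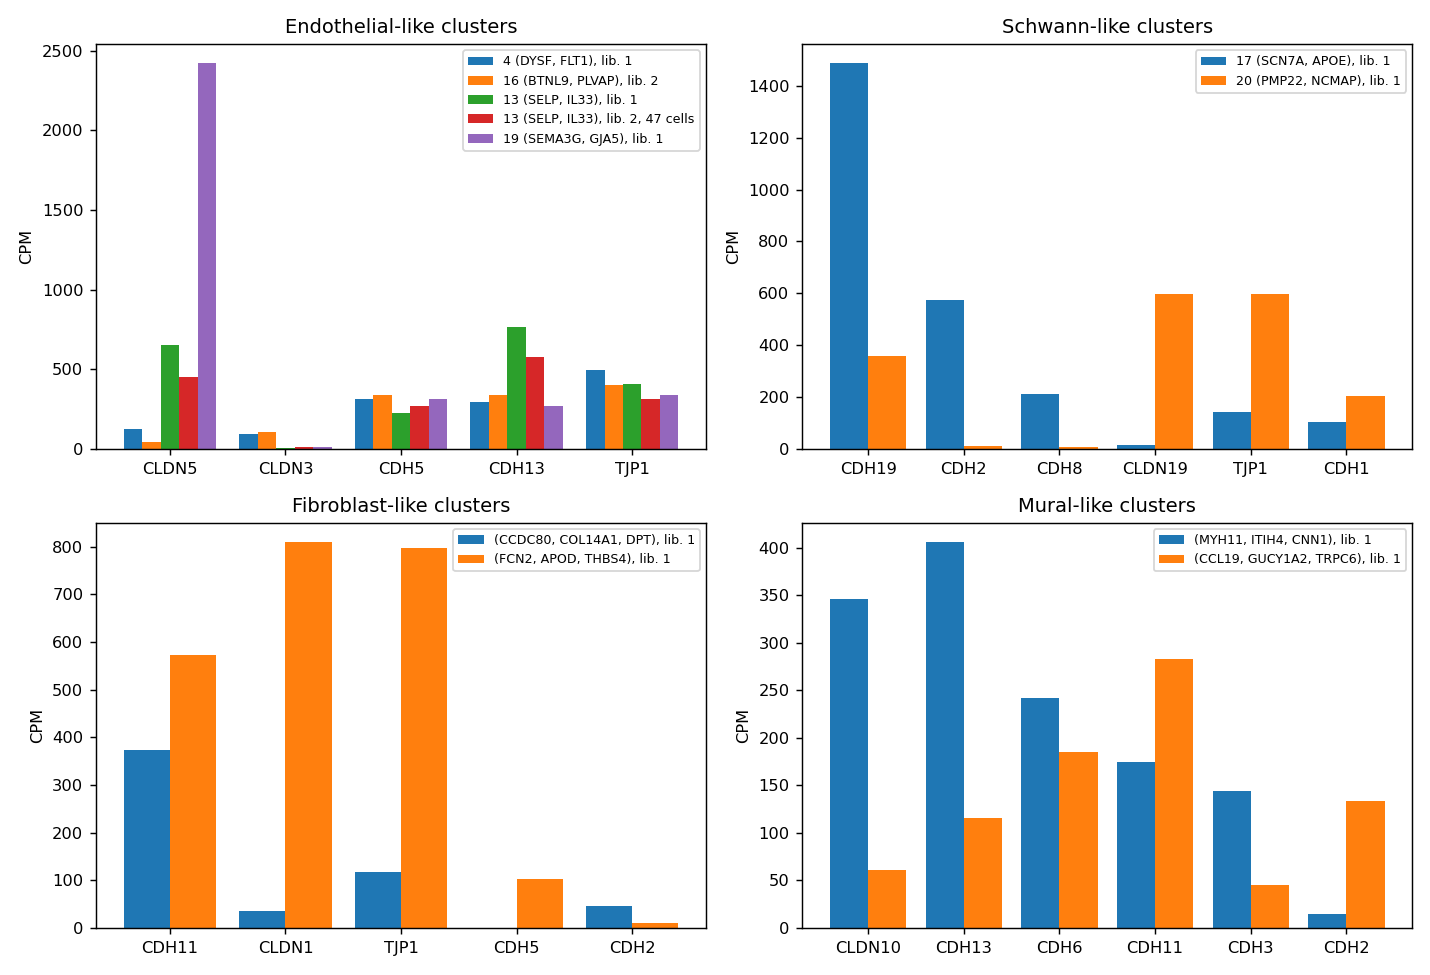
Bars of CPM (axes from 0) of selected junction genes in the clusters inside the endothelial-like, Schwann-like, fibroblast-like and mural-like classes; each bar is the sum over the cells of a cluster in 1 library and has no error bar. CLDN5 reaches 2420 CPM in the SEMA3G and GJA5 cluster, CLDN19 598 CPM in the PMP22 and NCMAP cluster and CLDN1 809.5 CPM in the FCN2 and APOD cluster.

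Immune-like cells, a class not known for tight junctions, had 1 member with a mean above 20 CPM, CDH23, with 62.0 and 110 CPM. CDH1 and CLDN10 had 30.2 and 26.5 CPM in primary pancreas 1 and 6.04 and 8.06 CPM in primary pancreas 2. Free RNA, RNA of broken cells, enters every droplet, so duct members were set against a duct gene that is no member. SLC4A4, a bicarbonate transporter of ducts, had 22605 and 26269 CPM in ductal-like cells and 687 and 142 CPM in immune-like cells. Per 1000 SLC4A4 UMIs there were 44.4 and 48.4 CLDN10 UMIs in ductal-like cells and 38.5 and 56.6 in immune-like cells, a like ratio. In mural-like cells the same ratio was 2923, in acinar-like cells 385 and 1110, and in endocrine-like cells 483 and 339. For CDH1 it was 40.7 and 17.04 in ductal-like cells, 44.0 and 42.5 in immune-like cells, 39.3 in fibroblast-like cells and 1536 in Schwann-like cells. CLDN3 gave 10.5 and 5.75 in ductal-like cells, 11.2 and 56.6 in immune-like cells and 787 and 1136 in endothelial-like cells. The ratios of CLDN10 in mural-like, acinar-like and endocrine-like cells, of CDH1 in Schwann-like cells and of CLDN3 in endothelial-like cells were higher than those of both ductal-like and immune-like cells of the same library. That of CDH1 in fibroblast-like cells, where it had 33.2 CPM, was not. The part of free RNA in these levels was not tested.

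PPDO were then compared with primary ductal-like cells. The study sought to learn how cultured duct cells relate to duct cells of the organ, and UMI sums of all PPDO cells and of all ductal-like cells per library, 2 against 2, entered edgeR's quasi-likelihood test over all genes. The label was first set against marker genes. SOX9 had 3.30 and 1.44 CPM in PPDO 1 and 2 against 322 and 355 CPM in ductal-like cells, and CFTR 1.04 and 0.637 CPM against 955 and 804 CPM. The duct keratin KRT7 had 389 and 384 CPM against 549 and 595 CPM, which did not pass the test (edgeR adjusted p = 0.513). Of 10 measured genes of the ductal list 8 were lower in PPDO, which is a description since this list named the class. All 6 measured basal genes (KRT5, TP63, KRT15, COL17A1, ITGB4 and ITGA6) and all 6 cornified-layer genes rose, beside 22.9% of all genes. This too is a description: the lists were chosen with earlier results of these data known, and the cornified-layer genes lead PPDO clusters. The RNA of the defining duct markers SOX9, CFTR and PKHD1 was thus near 0 in these 2 PPDO libraries, and KRT7 and BMPR1A were the list's 2 genes that did not pass. The study itself describes the sampled lines as mostly past the mature duct state, which it found in a minority of their cells. Basal traits with KRT5 after prolonged passaging are reported there too, from RNA and protein. The study also stained SOX9 and CFTR protein in PPDO, for the most part at early passage. It assigned bulk RNA of early passage PPDO mostly to a duct cluster. The stained lines include an LPN line at a passage that was also sampled for the RNA. Staining shows protein and the values here are RNA, and the part of this and of passage was not tested. The values describe the 2 sampled PPDO libraries and not PPDO in general.

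Of 43 members tested, 22 differed at an adjusted p (Benjamini-Hochberg over all 23507 genes) below 0.05, 7 higher and 15 lower in PPDO. That is 51.2% of the members, beside 43.7% of all genes, and 16.3% higher and 34.9% lower, beside 22.9% and 20.8% of all genes. The median log2 fold change was -0.91 over the members and 0.01 over all genes. Of 18 claudins 2 were higher and 8 lower, and of 22 cadherins 5 were higher and 5 lower. Of the calls, 9 concerned genes with a group mean of at most 4.50 CPM, 3 higher and 6 lower, and CLDN17 was too low to test. Without PPDO 1 there were 10 calls among 40 tested members and without PPDO 2 there were 11 among 42, beside 23.8 and 21.7% of all genes, and without primary pancreas 1 or 2 there were 21 and 26, beside 41.8 and 43.5%. With plain library totals in place of scaling factors the median of all genes moved to -0.44, and the split of calls to 5 higher and 19 lower among members and 3289 higher and 6907 lower among all genes, from 5372 and 4897.

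CLDN10, the leading claudin of duct cells, was nearly absent from PPDO. It had 6.70 and 1.76 CPM in PPDO 1 and 2 and 1004 and 1271 CPM in primary ductal-like cells 1 and 2. Both PPDO libraries lay more than 100-fold below both primary ones, and the plain mean of CPM was 269-fold lower in PPDO. With scaling factors the log2 fold change was -7.63 (SE 0.79, edgeR adjusted p = 0.00295). After thinning each cell to 3000 UMIs, CLDN10 was detected in 86.8 and 95.1% of duct cells, in 2.09 and 0.464% of PPDO cells and in 3.02 and 0.725% of immune-like cells, a class that should lack the gene. The immune-like cells come from the primary libraries, so their share does not set the background of the PPDO libraries. The part of free RNA in that share was not tested. Within PPDO the level ranged from 0.739 CPM in the cluster led by SPINK5 and KLK7 to 12.9 CPM in the cluster led by MOXD1 and LGR6 in PPDO 1, and in PPDO 2 from 0.424 CPM in the first to 13.5 CPM in the cluster led by SPP1 and WFDC2. Without thinning the shares were 93.9 and 99.3%, 12.9 and 5.02%, and 6.35 and 7.97%. The median ductal-like cell had 17871 and 20546 UMIs, the median PPDO cell 34176 and 34459 and the median immune-like cell 6695 and 9128.5. Thinning left out 112 and 0 ductal-like, 61 and 10 PPDO and 80 and 0 immune-like cells.

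CLDN1 moved the other way. CLDN1 (chromosome 13, 127714857 to 127730628), the claudin of the epidermal barrier, had 134 and 122 CPM in PPDO and 0.976 and 0.960 CPM in ductal-like cells, with little spread within either group. The plain mean of CPM rose 132-fold, and with scaling factors the log2 fold change was 7.48 (SE 0.19, edgeR adjusted p = 0.000319). At 3000 UMIs per cell it was found in 27.8 and 26.0% of PPDO cells, 0.0489 and 0.171% of ductal-like cells, 34.7% of fibroblast-like cells and 1.11 and 0% of immune-like cells. Without thinning it was found in 83.5 and 82.6% of PPDO cells and 1.76 and 1.37% of ductal-like cells. CLDN1 gave 53.8 and 55.0% of the summed claudin UMIs of PPDO, followed by CLDN4 with 23.3 and 22.3%. These shares leave out CLDN7, which had 49.7 and 34.4 CPM in PPDO, so with it they would be lower.

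The other claudins of the duct fell as well. CLDN8 stood at 4.36 and 1.86 CPM in PPDO, with a log2 fold change of -3.49 (SE 0.45, edgeR adjusted p = 0.00513). CLDN3 had 22.9 and 22.7 CPM, so both PPDO libraries lay below the lower primary value of 151 CPM (log2 fold change -2.67, SE 0.34, edgeR adjusted p = 0.00469). CLDN7 stood at 49.7 and 34.4 CPM, with a log2 fold change of -2.27 (SE 0.24, edgeR adjusted p = 0.00307).

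CLDN4, CLDN6 and CLDN22 were lower in PPDO by calls that were lost when a PPDO library was left out. CLDN4 had 57.7 and 49.6 CPM in PPDO against 534 and 196 CPM (log2 fold change -2.38, SE 0.58, edgeR adjusted p = 0.0300). CLDN6 had 5.79 and 6.12 CPM against 58.0 and 27.1 CPM (-2.43, SE 0.48, edgeR adjusted p = 0.0164). CLDN22 had 6.47 and 8.67 CPM against 20.03 and 31.5 CPM (-1.29, SE 0.26, edgeR adjusted p = 0.0183). All 3 calls were lost without PPDO 1, and those of CLDN4 and CLDN6 also without PPDO 2. The fold changes moved little, to -2.46, -2.37 and -1.07 without PPDO 1 and to -2.31, -2.52 and -1.56 without PPDO 2. In such a fit fewer libraries set the spread, and the lone PPDO library is assumed to vary like the primary ones.

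Occludin and the scaffold gene TJP3 fell, and TJP1 did not pass the test. OCLN had 24.9 and 20.5 CPM in PPDO against 153 and 125 CPM (log2 fold change -2.18, SE 0.23, edgeR adjusted p = 0.00300). TJP3 (ZO-3) had 5.19 and 3.27 CPM against 30.9 and 36.4 CPM (-2.54, SE 0.26, edgeR adjusted p = 0.00274). TJP1 (ZO-1) had 117 and 116 CPM against 343 and 196 CPM, a log2 fold change of -0.80 (SE 0.36) that did not pass the test (edgeR adjusted p = 0.139), and passed without primary pancreas 2 (-1.25, edgeR adjusted p = 0.00396) and with plain library totals (-1.21, edgeR adjusted p = 0.0205).

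Among the cadherins, CDH1 stayed the most abundant in PPDO while CDH3, CDH13 and CDH23 rose beside it. CDH3 had 115 and 138 CPM in PPDO against 12.2 and 15.2 CPM in duct, with a log2 fold change of 3.67 (SE 0.18, edgeR adjusted p = 0.000615). CDH13 (T-cadherin) had 75.6 and 54.7 CPM against 5.99 and 4.60 CPM (4.04, SE 0.30, edgeR adjusted p = 0.00139). CDH23 had 39.2 and 42.4 CPM against 5.04 and 6.96 CPM (3.23, SE 0.18, edgeR adjusted p = 0.000796). The groups were far apart in all 3, with folds of the means of 9.24, 12.3 and 6.80. The basal genes that rose in the same sums include ITGB4, with 316 and 334 CPM against 13.5 and 17.8 CPM, and KRT5, with 5420 and 7634 CPM against 0.325 and 0.280 CPM. Their part in the rise of CLDN1, CDH3, CDH13 and CDH23 was not tested.

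CDH1 had 191 and 174 CPM in PPDO against 919 and 447 CPM in the primary libraries. The log2 fold change was -1.502 (SE 0.44), just past the threshold (edgeR adjusted p = 0.0486). The spread between the primary libraries was wider than between the PPDO libraries. The call was lost without PPDO 1 (0.158), without PPDO 2 (0.175) and with a replicate block (0.0566). At 3000 UMIs per cell CDH1 was found in 37.4 and 35.3% of PPDO cells. The same share was 81.8 and 71.1% for duct and 3.82 and 2.17% for immune-like cells. The share of CDH1 among cadherin UMIs was 43.6 and 40.9% in PPDO, where CDH3 gave 26.3 and 32.4%. Of the cadherins of other classes, CDH5, CDH8 and CDH19 were called lower at under 2 CPM in both groups. Their highest class means were in endothelial-like or Schwann-like cells of the primary libraries, and the part of free RNA in these calls was not tested. CDH2, CDH6, CDH18 and CDH24 did not pass (edgeR adjusted p = 0.0790, 0.423, 0.0973 and 0.233).

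**Figure D4:**
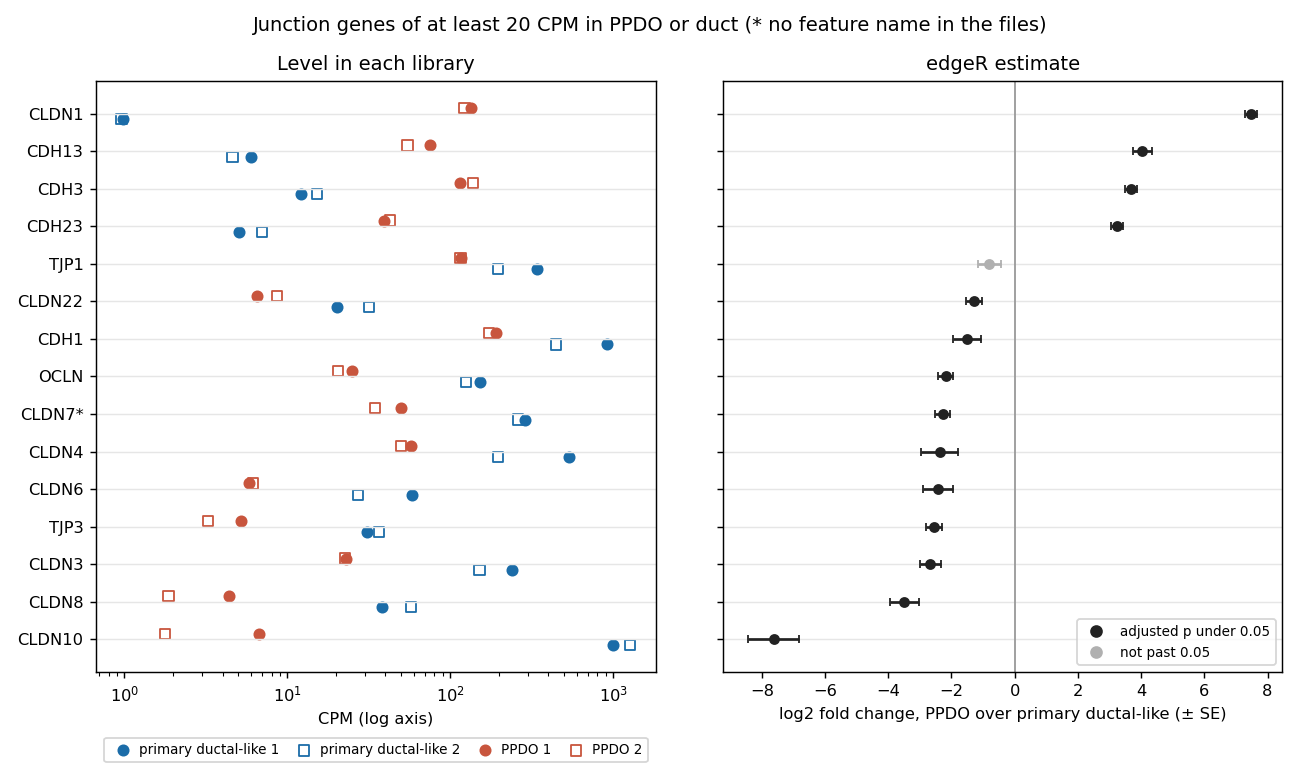
Left, CPM on a log axis of each junction gene with at least 20 CPM in PPDO or duct, a point per library (red PPDO, blue primary ductal-like; circle 1, square 2); right, the edgeR log2 fold change of PPDO over primary ductal-like cells with bars of 1 SE, black where the adjusted p is below 0.05. CLDN1 lies at the top with 7.48 and CLDN10 at the bottom with -7.63, and TJP1 did not pass the threshold.

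Calls that did not depend on a setting were fewer. The members CLDN1, CLDN3, CLDN8, CLDN10, OCLN, TJP3, CDH3, CDH13 and CDH23, 9 in all, were called in every one of 17 alternative settings that tested them. That is 20.9% of the 43 members, beside 17.9% of all genes. These settings use the PPDO cells of all clusters, and include leaving out each library, other scalings, DESeq2 and doublets kept. They do not include the comparison with a single PPDO cluster below.

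Other genes of the junctions were taken from fixed lists. Of 17 measured tight junction partners, 10 were called, 1 higher and 9 lower in PPDO, with a median log2 fold change of -1.22, beside 22.9% higher, 20.8% lower and a median of 0.01 over all genes, the background of each list that follows. The member that rose, ILDR2, was at 5.87 CPM or less in both groups. The 4 called genes with the largest changes among those of at least 20 CPM in a group code for scaffolds. MAGI2 had 1.67 and 1.77 CPM in PPDO against 52.3 and 76.9 CPM (log2 fold change -4.76), CGNL1 (paracingulin) 7.59 and 13.4 CPM against 229 and 180 CPM (-3.84), MPDZ 7.53 and 9.06 CPM against 68.6 and 75.4 CPM (-2.66), and MAGI1 269 and 267 CPM against 1913 and 2193 CPM (-2.48). The edgeR adjusted p lay between 0.000488 and 0.00318 for these 4. With plain library totals all 17 were called, 1 higher and 16 lower, beside 43.4% of all genes. Lower calls then outnumbered higher ones over all genes too, at 6907 against 3289.

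Adherens junction partners went in both directions, with 5 of 12 higher and 5 lower and a median of -0.19. Of the 3 measured nectins, immunoglobulin-like adhesion molecules that start the contact, 1 fell and 2 rose. NECTIN3 had 5.13 and 4.99 CPM in PPDO against 304 and 429 CPM (log2 fold change -5.71, SE 0.18, edgeR adjusted p = 0.000319), and NECTIN1 had 107 and 111 CPM against 1.44 and 0.8003 CPM (6.98, SE 0.41, edgeR adjusted p = 0.000867). NECTIN4 had 49.1 and 56.8 CPM against 35.5 and 25.2 CPM (1.23, SE 0.29, edgeR adjusted p = 0.0268). AFDN (afadin, which binds nectins) and PLEKHA7 fell by 1.505 and fell by 1.49 on the log2 scale. The catenins of at least 20 CPM had log2 fold changes of -0.84 for CTNNB1 (beta-catenin), -0.98 for CTNNA1 (alpha-catenin), 0.46 for CTNND1 (p120) and 1.11 for JUP (plakoglobin), all past the threshold. The CPM of CTNND1 were 307 and 305 in PPDO against 270.5 and 342 in duct, with means of 306.1 and 306.4, so its rise comes from the scaling factors. CTNNA2, at 3.97 CPM or less in both groups, rose by 1.61 on the log2 scale, and CTNNA3, with a log2 fold change of 1.29, did not pass (edgeR adjusted p = 0.0959). Fewer genes of the list were called when a PPDO library was left out, and fewer of all genes as well.

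Desmosomes, the third kind of junction, join cells through their keratin filaments. Of 12 measured desmosome genes 8 rose and 1 (DSG2) fell, with a median log2 fold change of 2.22. DSG3, a desmoglein of basal layers in stratified epithelia, had 254 and 290 CPM in PPDO against 0.325 and 0.9204 CPM (log2 fold change 9.33, SE 0.48, edgeR adjusted p = 0.000658). PKP1 had 42.2 and 52.8 CPM against 0.116 and 0.0400 CPM (9.50, SE 0.45, edgeR adjusted p = 0.000560), and PERP 1365 and 1467 CPM against 128 and 114 CPM (3.99, SE 0.22, edgeR adjusted p = 0.000756). PKP3 rose by 1.51.

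Transcription factors that are known to set epithelial junction genes were the last list. Of 10 tested, 3 rose and 5 fell. Here too, calls of the list and of all genes were fewer when a PPDO library was left out. GRHL3, a grainyhead factor of the epidermis, had 32.1 and 29.4 CPM in PPDO against 0.488 and 0.480 CPM (log2 fold change 6.42, SE 0.21, edgeR adjusted p = 0.000334). GRHL2, its relative in simple epithelia, had 180 and 165 CPM against 384 and 519 CPM (-0.92, SE 0.14, edgeR adjusted p = 0.00742). OVOL2 fell by 3.33 on the log2 scale and ELF3 fell by 2.92, the second with 149 and 34.9 CPM in the primary libraries. Repressors of CDH1 went in both directions. SNAI2 (Slug) rose, with 15.04 and 18.7 CPM in PPDO against 1.39 and 0.2401 CPM (log2 fold change 4.67, SE 0.83, edgeR adjusted p = 0.0123), whereas ZEB1 and ZEB2 were at 8.11 CPM or less in both groups and fell.

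Within PPDO the members varied between the 10 clusters. CDH13 was highest in the cluster led by MOXD1 and LGR6 (2522 and 2056 cells), with 155 and 110 CPM, and CDH13 is itself a leading gene of that cluster. It was 4.11 and 4.71 CPM in the cluster led by SPINK5 and KLK7 (581 and 595 cells) and was 9.21 and 6.90 CPM in the cluster led by SPP1 and WFDC2 (311 and 185 cells). CLDN4 ran opposite to it, with 27.2 and 15.7 CPM in the MOXD1 and LGR6 cluster, 161 and 155 CPM in the SPINK5 and KLK7 cluster and 142 and 163 CPM in the SPP1 and WFDC2 cluster. CLDN1 was also highest in the SPINK5 and KLK7 cluster, with 256 and 271 CPM against 77.1 and 60.9 CPM in the MOXD1 and LGR6 cluster, and so was CDH1, with 369 and 379 CPM. CDH3 was highest in the cluster led by CCL2 and ICAM1, with 161 and 216 CPM, and at 44.2 and 68.3 CPM in the cluster led by ADM, a gene known to respond to low oxygen.

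The SPP1 and WFDC2 cluster had the most CLDN3 of the PPDO clusters. CLDN3 had 96.0 and 98.9 CPM there and at most 36.5 CPM in any other cluster. CLDN7 had 177 and 195 CPM, OCLN 45.3 and 56.2 CPM and TJP3 31.3 and 23.4 CPM. CDH1, with 242 and 299.5 CPM, was lower than in the SPINK5 and KLK7 cluster, and CLDN1 stayed at 167 and 206 CPM. The libraries did not give like orders for CLDN10. CLDN10 had 8.29 and 13.5 CPM in the SPP1 and WFDC2 cluster and 12.9 and 1.92 CPM in the MOXD1 and LGR6 cluster, so PPDO 1 had it highest in the second and PPDO 2 in the first. CDH6 was highest in the SPP1 and WFDC2 cluster in both libraries, but at 29.2 CPM in PPDO 1 and 1.18 CPM in PPDO 2. Set against ductal-like cells on its own, a choice made with the values already in view, this cluster had 8 of 25 tested members called, 4 higher and 4 lower, beside 41.6% of all genes in that fit, and the calls of CLDN3, CLDN4, CLDN6, CLDN22, TJP3, CDH1 and CDH13 were lost. TJP3 then had a log2 fold change of -0.00054 and CLDN3 of -0.75 (edgeR adjusted p = 0.999 and 0.120), and CLDN7 of -0.29 (0.284).

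**Figure D5:**
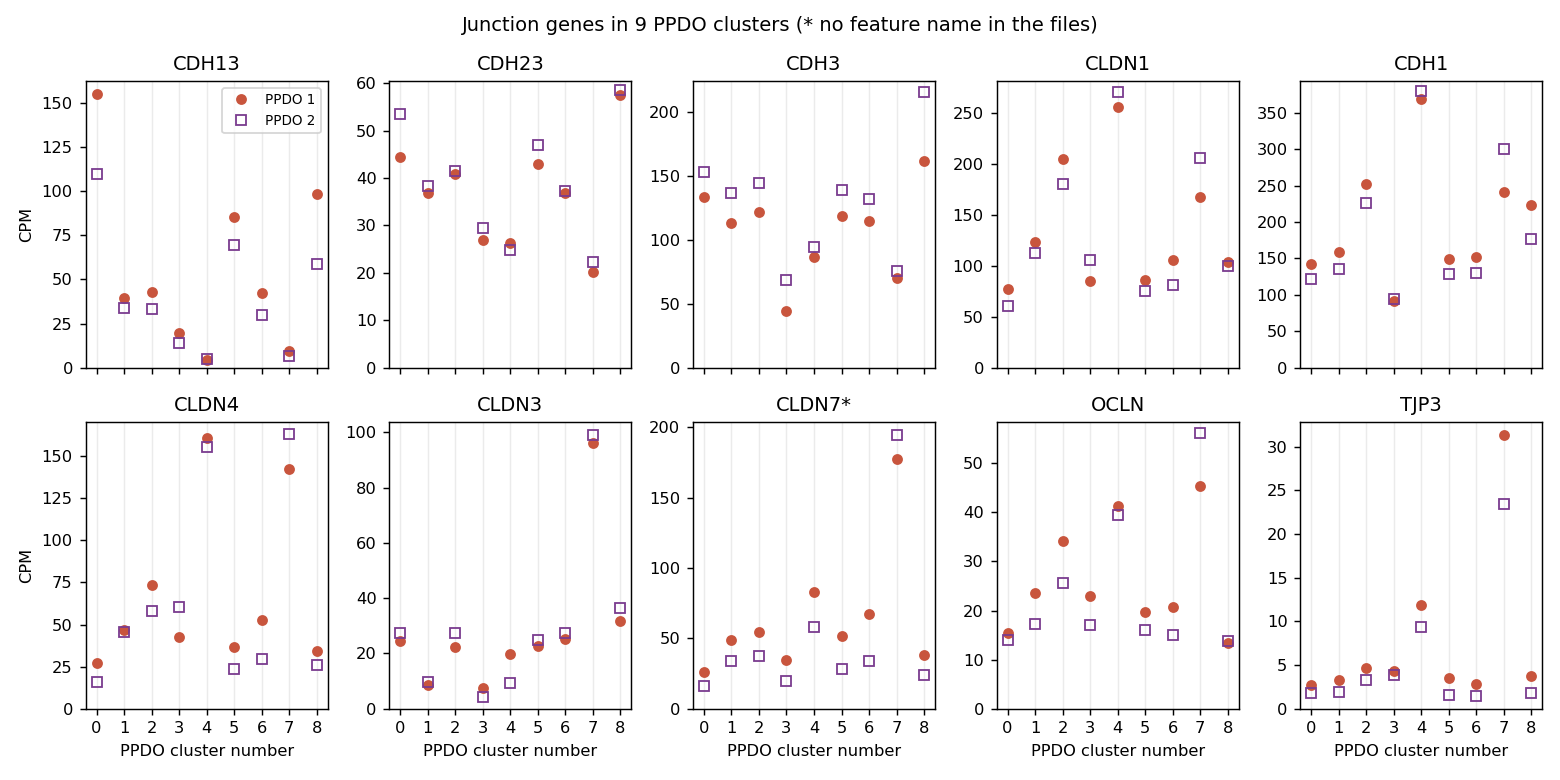
CPM (axes from 0) of junction genes in 9 PPDO clusters, each panel a gene and each point a library (PPDO 1 and PPDO 2); the smallest cluster, of 25 and 66 cells, is not drawn. CDH13 peaks in cluster 0 (155 and 110 CPM) and CLDN3 in cluster 7 (96.0 and 98.9 CPM), while CLDN4 and CLDN1 peak in cluster 4 or 7 in both libraries.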

How the data were processed

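Single-cell RNA was measured by 10x Chromium 3' v3.1 in 2 PPDO and 2 primary pancreas libraries. The authors deposited, per library, a filtered matrix of raw UMI counts made with Cell Ranger 7.1.0 and an in-house pig annotation in which 3' extensions are separate features; the submitters' processing notes name Sscrofa11.1. The study's free-RNA correction (SoupX) came after these files and was not applied here. Gene models and extensions were summed per gene, and 14 genes of the junction partner and marker lists had no match, among them CGN, PALS1, CRB3, NECTIN2, DSC3 and TWIST1.

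Cells were kept after the study's methods: PPDO with 1000 to 9000 features (the study used a floor of 600 for 1 of its samples, which no label identifies, so 1000 was used for both and 600 was an alternative) and at most 3% mitochondrial UMIs, primary cells with under 9000 features and under 8% mitochondrial UMIs, over 400 features (1) or over 800 features and 3000 UMIs (2). Scrublet scores above 0.25 and 0.15 removed 89 and 154 primary cells; doublets of PPDO were not removed. Clusters (scanpy 1.11.5, leidenalg 0.10.2) used 2000 variable genes without the members, 20 components, 15 neighbours and resolution 0.5. A cluster took a class name from at least 3 of that list's markers. Members of at least 20 CPM in PPDO or a primary class of at least 50 cells were named with values, and per partner list up to 4 called genes of at least 20 CPM with the largest change; the catenins, SNAI2, ZEB1, ZEB2 and other list genes outside this rule were named with their values in view. Members and lists were chosen with earlier results of these data known.

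UMI counts were summed per library and tested with edgeR 4.0.16 (R 4.3.3; TMM scaling, filterByExpr, quasi-likelihood F test, Benjamini-Hochberg), with DESeq2 1.42.0 as an alternative. Fold changes are PPDO over primary, and the SE is the absolute log2 fold change over the root of F. All log2 fold changes carry the TMM scaling factors, whereas folds of means are plain ratios of CPM, so they differ. Positions are RefSeq's. On simulated data for PPDO against primary ductal-like sums (23752 genes, 100 changed 2-fold and 100 changed 4-fold), edgeR recovered 3% of the 2-fold and 66% of the 4-fold changes with 2 false calls. Far more genes differ in the real comparison, so its adjusted threshold is less strict than the simulated one. Shares of cells were compared after thinning to 3000 UMIs; depth covers counting error only. Alternatives covered scaling, filters, clustering, doublets, extensions and each library left out.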

Additional observations from a re-analysis of the deposited data

How the results depend on the processing

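Over the 4 fits without 1 library, 10 to 26 members were called (22 with all), 3 to 11 adherens junction partners (10) and 4 to 9 transcription factors (8). Among genes not over 2 times higher in another primary class, 9 of 13 members were called, 0 higher, beside 51.4% of all genes; this filter removes CLDN1, CDH3, CDH13 and CDH23, which are higher in another class. Against the SPP1 and WFDC2 cluster of PPDO alone, 8 of 25 were called, beside 41.6% of all genes, and CDH6 had a log2 fold change of 1.91 in place of -1.35. Plain library totals called 17 of 17 tight junction partners, in place of 10, beside 43.4% of all genes. CLDN19 ranged from -1.01 to 1.11 and CLDN5 from -2.57 to 0.15 without 1 library, and CLDN19 was 0.42 without the OSGIN1 and EREG cluster; the highest values are those without primary pancreas 1, and neither gene was called with all libraries. The causes were not tested. Fits with a single cluster left in or out were added after the data were seen.

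A fit with a replicate block called 17 members, 6 higher and 11 lower, beside 35.0% of all genes, and lost CDH1 among those of at least 20 CPM. The numbers share no stated origin, and the deviations of equal numbers had a correlation across genes of -0.0012, so no pairing was assumed. Over 26 genes, the 25 named members and CLDN7, 388 of 438 values under an alternative kept direction and side of the threshold. Of the others, 31 lost the call, 15 gained it and 4 changed sign. A comparison limited to ductal-like clusters with 50 cells of each library was not run, since 0 clusters met it. With sums thinned to the smallest, 17 of 28 tested members were called, beside 48.3% of all genes. Whether the 2 libraries per group or depth limits the precision more was not tested.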

Other observations

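Unnamed clusters of the primary pancreas held junction genes too. The 283 unnamed cells of primary pancreas 1, at a median of 1298 UMIs, had 961 CPM of CLDN10, 697 CPM of CDH1, 395 CPM of CLDN3 and 409 CPM of CLDN7 beside 155 CPM of CLDN5. The 380 unnamed cells of primary pancreas 2, at a median of 4081 UMIs, had 489 CPM of CLDN10, 161 CPM of CDH1 and 57.3 CPM of CDH4. These are sums over several clusters of low depth, and they enter no comparison.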
